A study of Coregonus lavaretus with 13 samples.

Results

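The livers of juvenile whitefish (Coregonus lavaretus, Rutki-strain) taken 6 days after an intraperitoneal injection of microcystin-LR (MC-LR) were compared with livers taken 1 day after an injection of phosphate-buffered saline (PBS). The comparison lists 3866 putative long non-coding RNAs of no known homology (lncRNAs), out of 4729 listed on any of the 3 exposure days of the study, and all 3866 are described. Each is a contig of a de novo assembly, listed by the authors because it differed between these same fish at an adjusted p below 0.001. The difference itself therefore chose the contigs. Contigs outside that threshold were not analysed here, and every difference between the groups is given as a description of the listed contigs, with no independent test behind it.

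Each liver is from a separate fish and gave 1 library. The 3 MC-LR fish of day 6 had received 100 μg of toxin per kg of body mass in the first injection only, and the 4 control fish carried PBS, the solvent of the toxin. The controls were of day 1 and lived in a different tank, so the toxin, the time since injection and the tank cannot be told apart. The livers were bulk tissue, in which fewer cells of a type and less RNA per cell cannot be told apart either. The contig IDs are names within this assembly, so none of the 3866 could be found among RefSeq gene identifiers, and no sequence was compared. No ID is paired with a gene. The liver identity could therefore not be checked against marker genes, and at most 4 contigs are named by their IDs.

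MC-LR is a cyclic peptide of cyanobacteria. It enters hepatocytes through organic anion transporters of the liver and inhibits serine/threonine protein phosphatases, which leads to excess phosphorylation of cellular proteins and loss of cell shape. A lncRNA is a long transcript without a recognisable protein-coding frame, and many lncRNAs are made in 1 tissue or cell type and at low levels. The libraries were prepared from polyadenylated RNA, so transcripts without a poly(A) tail were not measured.

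The listed contigs drew 1738607 to 2100955 reads in each control and 979744 to 1188494 in each exposed fish, a fraction of the library that says nothing of its depth. Counts were divided by the authors' size factors, which were solved from the deposited base means and averaged 0.970 ± 0.0513 in PBS fish (SD, n = 4) and 1.12 ± 0.0577 in MC-LR fish (SD, n = 3). The quotient is called the normalized count here. Contig lengths were not used, so an order of normalized counts is an order of reads and not of transcript molecules. Scaling by the clean reads of each library instead would shift log2 ratios upward by 0.14, by the mean log scale factors of the groups. The shift of single contigs differs from this.

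Of the 3866 contigs, 2555 (66.1%) had a lower mean normalized count in MC-LR fish and 1311 (33.9%) a higher one. These are called lowered and raised contigs below, by the direction of the means alone. The median lowered contig stood at 75.5 normalized counts in PBS fish and 3.0 in MC-LR fish. The median raised contig stood at 8.21 in PBS fish and 112 in MC-LR fish. On the scale of log2(mean + 1), the median difference was -3.92 for lowered contigs (quartiles -4.85 and -3.09), 3.57 for raised contigs (quartiles 2.64 and 4.46) and -3.05 over all listed contigs. The gap along the line of equal levels in the plot of group means is the part that the authors' threshold left out.

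**Figure D1:**
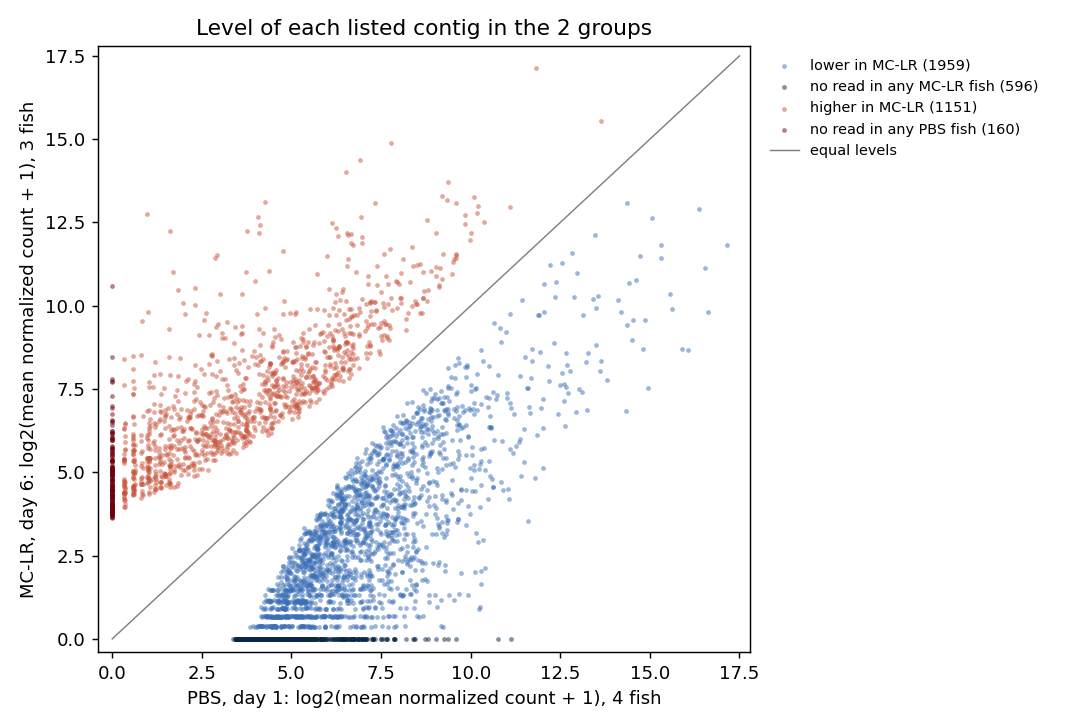
Mean level of each of the 3866 listed contigs in the 4 PBS fish of day 1 (x axis) and the 3 MC-LR fish of day 6 (y axis), both as log2(mean normalized count + 1), with 1 point per contig. The 2555 lowered contigs lie below the line of equal levels and the 1311 raised ones above it, and 596 and 160 contigs lie on the axes because 1 group had no read on them.

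In edgeR's quasi-likelihood test, with Benjamini-Hochberg adjustment over the 3866 listed contigs, 921 raised contigs (23.8% of those listed) and 1679 lowered ones (43.4%) had an adjusted p below 0.001 and a log2 fold change beyond 2. These calls use the fish that chose the contigs, so they show only how many listed contigs reach both of the study's thresholds in a different tool. The listing itself used the adjusted p and not the fold. Of the contigs that did not reach both thresholds in edgeR, 866 lowered and 374 raised ones missed the adjusted p, while 10 and 16 missed the fold alone. DESeq2 with the same size factors called 1172 raised and 2414 lowered contigs. Raised contigs made up 35.4% of the edgeR calls, and 39.3% when counts were scaled by clean reads. They made up 62.1% (1305 raised and 798 lowered) when counts were scaled by TMM of the listed contigs. By the mean log scale factors of the groups, TMM shifts log2 ratios upward by 1.08, and the shift of single contigs differs from this. TMM takes most contigs as unchanged, and the listed contigs were chosen for a change. Without MC-LR fish 1, 2 or 3, edgeR called 592, 469 or 505 raised and 666, 656 or 619 lowered contigs.

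The groups of fish did not overlap in 2497 of the lowered contigs (64.6% of all listed contigs) and in 1298 of the raised ones (33.6% of all listed). In the other 58 lowered contigs at least 1 MC-LR fish was no lower than the lowest PBS fish. In the other 13 raised contigs at least 1 MC-LR fish was no higher than the highest PBS fish. Of the overlapping contigs, 1 lowered and 2 raised ones passed the thresholds in edgeR.

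The reads that a liver held on lowered contigs were summed per fish. PBS fish 1 to 4 had 1791867, 2004763, 2103072 and 1714591 normalized counts on the 2555 lowered contigs. MC-LR fish 1 to 3 had 134711, 155389 and 99798 on the same contigs. The MC-LR livers thus kept 7.08%, 8.16% and 5.24% of the PBS mean, or 6.83% ± 1.48 (SD, n = 3). The lowest control held more than 10 times as many as the highest exposed fish, a separation that the choice of contigs fixed.

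On the 1311 raised contigs, PBS fish 1 to 4 had 79288, 85884, 78834 and 82633 normalized counts. MC-LR fish 1 to 3 had 695583, 827309 and 981533 on them, which is 8.52, 10.1 and 12.02 times the PBS mean (10.2 ± 1.75, SD, n = 3). The controls were close to each other here, with 81659 ± 3286 (SD, n = 4), and the exposed fish further apart, with 834808 ± 143122 (SD, n = 3). MC-LR fish 3 had the lowest sum of lowered contigs and the highest sum of raised ones. Without the single most abundant raised contig the order among exposed fish was different, with 587340, 795158 and 691839 in MC-LR fish 1 to 3.

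**Figure D2:**
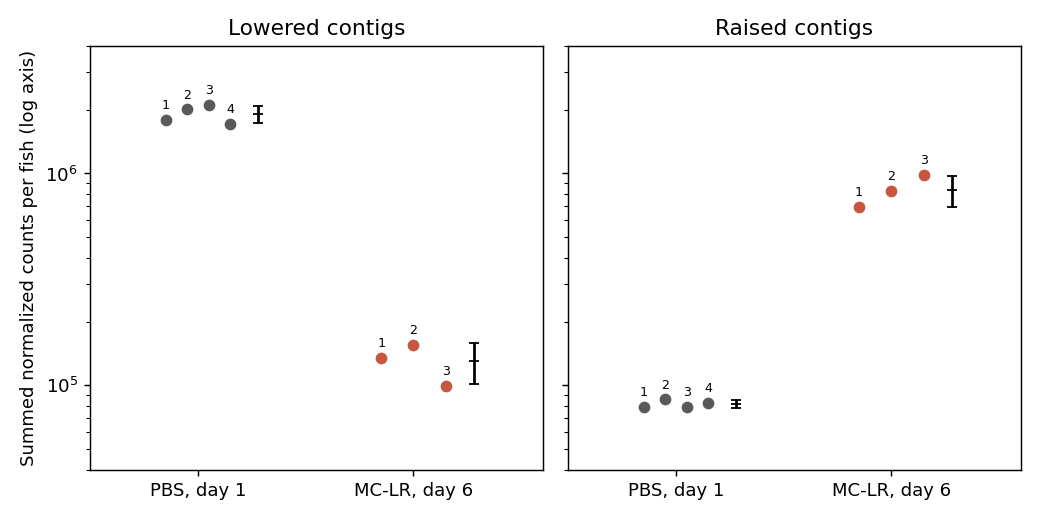
Summed normalized counts per fish (log axis) over the 2555 lowered contigs (left) and the 1311 raised contigs (right), with numbered points for fish and a bar for the mean and SD of each group. PBS fish sit at 1714591 or more on lowered contigs and MC-LR fish at 155389 or less, while on raised contigs PBS fish sit at 85884 or less and MC-LR fish at 695583 or more.

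Lowered contigs made up 95.9% ± 0.407 of the normalized counts on all listed contigs in PBS fish (SD, n = 4) and 13.8% ± 3.93 in MC-LR fish (SD, n = 3). The 3 exposed fish had 16.2%, 15.8% and 9.23%. The sum over all listed contigs was 1985233 ± 180881 in PBS fish (SD, n = 4) and 964774 ± 126475 in MC-LR fish (SD, n = 3). The MC-LR mean was 48.6% of the PBS mean with these size factors and 53.4% with clean-read scaling. With TMM of the listed contigs it was 103%. That scaling takes most listed contigs as unchanged, so it cannot decide whether exposed fish held fewer reads on the list.

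Few contigs carried most of these reads. In PBS fish, 18 lowered contigs held 50% of the mean sum, the first 10 held 38.7% and the first 100 held 78.2%. In MC-LR fish, 26 raised contigs held 50% of theirs, and the first 10 and first 100 held 37.3% and 71.7%. By abundance, the 166 lowered contigs with a PBS mean of at least 1000 made up 6.497% of lowered contigs and 82.8% of their reads in PBS fish. Another 906 lay at 100 to 1000 and held 13.9%, and 1476 lay at 10 to 100 and held 3.26%.

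The abundant lowered contigs were largely lost. Their median level in MC-LR fish was 3.87% of the PBS mean (quartiles 1.92% and 10.03%), against 6.78% for contigs at 100 to 1000 and 2.21% for those at 10 to 100. Low contigs had to differ more to be listed, so the classes are not compared further. Of the 166, 124 kept less than 10% of the PBS mean and 20 less than 1%, and the contig with the most left kept 50.8%. The groups of fish did not overlap in 164 of the 166, and in 97.7% of all lowered contigs. In MC-LR fish, 24 of the 166 still had a mean of at least 1000 and 11 had a mean below 10. MC-LR fish 3 was the lowest exposed fish in 99 of the 166, fish 1 in 37 and fish 2 in 30. In edgeR 136 of the 166 passed the thresholds (81.9%), against 65.7% of all lowered contigs. More reads make a pass more likely, so this contrast is partly built into the choice of abundant contigs.

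TRINITY_DN96077_c2_g1_i1 was the lowered contig with the most reads in controls. PBS fish 1 to 4 had 94722, 172450, 165629 and 145765 normalized counts of it, and MC-LR fish 1 to 3 had 2425, 6472 and 1935. The groups were far apart, with MC-LR fish 2 the highest of the exposed fish and PBS fish 1 the lowest control. The mean was 144642 ± 35152 in PBS fish (SD, n = 4) and 3611 ± 2490 in MC-LR fish (SD, n = 3), 40.1-fold lower, and 66.3-fold lower without MC-LR fish 2. Its log2 fold change in edgeR was -5.32 (SE 0.83, adjusted p = 0.000187). Without MC-LR fish 1 its adjusted p in edgeR was 0.00184, the largest over the 12 alternatives in edgeR and DESeq2. The smallest, 7.25e-23, came from DESeq2, the tool with which the authors listed the contig.

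The next 9 lowered contigs by PBS mean ranged from 101734 down to 40625 normalized counts in PBS fish. The groups of fish did not overlap in any of these first 10, as in 97.7% of all lowered contigs. MC-LR fish 3 was the lowest exposed fish in all 10. Summed over the 10, PBS fish 1 to 4 had 692390, 721180, 821824 and 710875 normalized counts, and MC-LR fish 1 to 3 had 22213, 39857 and 9763. The contig of rank 5 kept least, with 62800, 46268, 74171 and 88696 in PBS fish and 630, 550 and 48.2 in MC-LR fish. The contig of rank 4 kept most, at 9.14% of the PBS mean, with 122733, 88816, 96243 and 30106 in PBS fish and 6334, 13991 and 2832 in MC-LR fish.

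Rank 8 stood out for its spread among controls. PBS fish 1 and 4 had 109718 and 72798 normalized counts of this contig, and PBS fish 2 and 3 had 5530 and 5481. MC-LR fish 1 to 3 had 1379, 1990 and 569. The highest control was 20.0 times the lowest, while the lowest control was still above every exposed fish. With an adjusted p of 0.00185 in edgeR this contig missed the threshold, as did ranks 4 and 9, with adjusted p of 0.00169 and 0.00119.

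**Figure D3:**
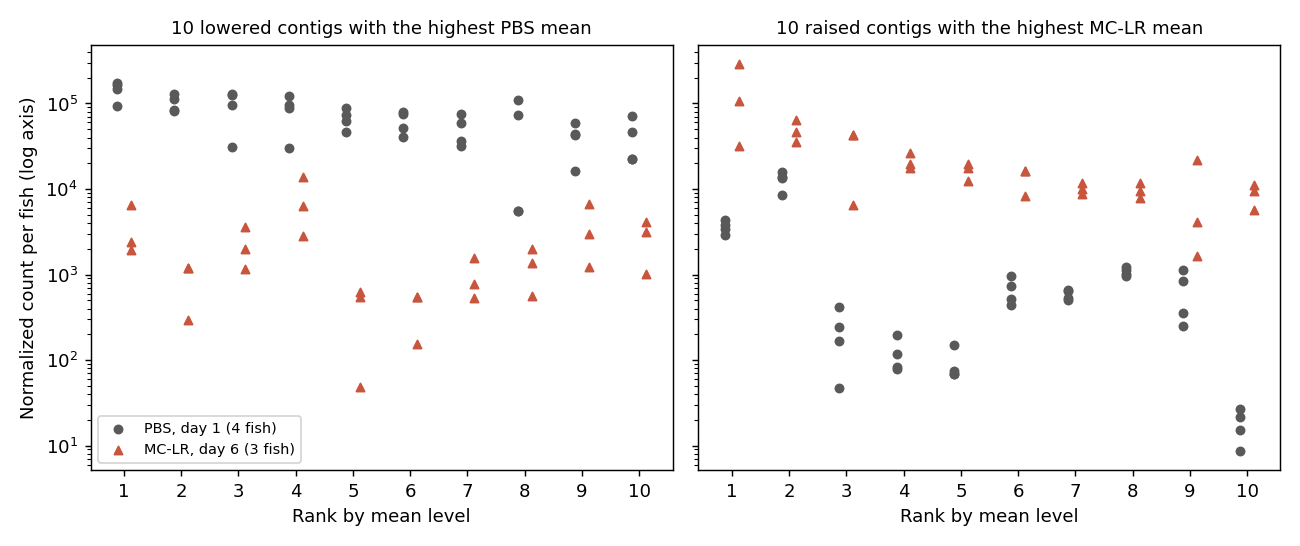
Normalized count in each fish (log axis) of the 10 lowered contigs with the highest PBS mean (left) and the 10 raised contigs with the highest MC-LR mean (right), by rank. Circles are the 4 PBS fish and triangles the 3 MC-LR fish. In all 20 contigs the groups do not overlap, as in 97.7% of all lowered and 99.0% of all raised contigs. Rank 8 on the left spans 5481 to 109718 among controls, and rank 1 on the right spans 32151 to 289694 among exposed fish.

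Wide ranges among controls were found beyond that contig. Of the 1072 lowered contigs with a PBS mean of at least 100, 95 (8.86%) had a highest control at least 10 times the lowest one, where a lowest control under 3 reads was taken as 3. The high controls were not the same fish each time. PBS fish 2 and 3 were the upper pair in 26 of the 95, fish 1 and 2 in 19, fish 2 and 4 in 16, fish 1 and 4 and fish 3 and 4 in 12 each, and fish 1 and 3 in 10. In edgeR 43 of the 95 (45.3%) passed the thresholds, against 734 of the other 977 (75.1%). The groups of fish did not overlap in 67 of the 95, against 97.7% of all lowered contigs. A wide range among controls by itself makes overlap and a missed threshold more likely, so both contrasts are partly built into the choice of the 95.

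Many lowered contigs had no read in at least 1 exposed fish. Every MC-LR fish had reads on 1269 of the 2555 (49.7%), 356 had no read in 1 MC-LR fish, 334 had none in 2, and 596 (23.3%) had none in any of the 3. The median PBS mean of these classes was 169, 58.0, 39.4 and 21.7 normalized counts, lower with each further exposed fish at 0. A contig with few reads in controls reaches 0 at a smaller fold loss, so this order is tied to read depth. MC-LR fish 1, 2 and 3 lacked reads on 845, 998 and 969 lowered contigs, against 5, 2, 2 and 6 in PBS fish 1 to 4. A further 100 lowered contigs had a single read in 1 exposed fish and none in the others.

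**Figure D4:**
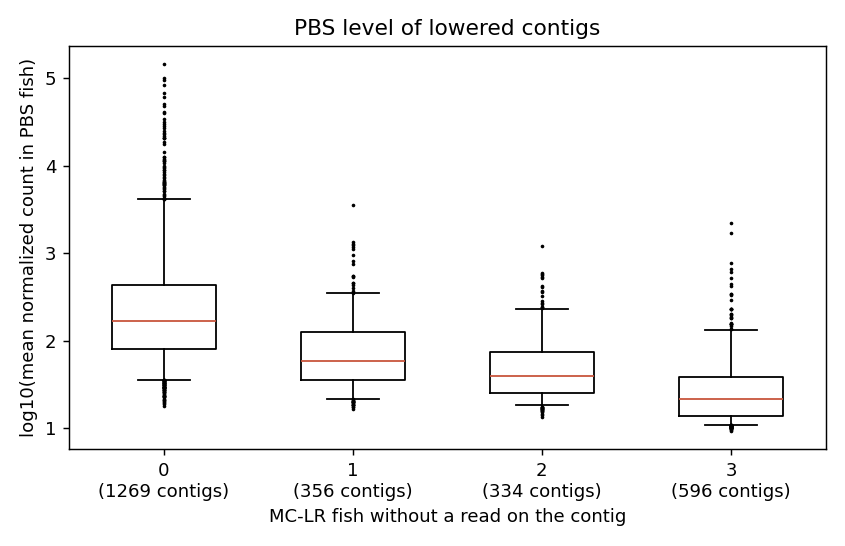
PBS level of the 2555 lowered contigs as log10 of the mean normalized count over 4 fish, by how many of the 3 MC-LR fish had no read on the contig. Boxes span the quartiles with the median as a line and whiskers the 5th to 95th percentile, and the median falls from 169 normalized counts where every exposed fish had reads to 21.7 where none had.

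The 596 contigs without a read in any exposed fish are called silenced here. Their PBS means ran from 9.35 to 2227 normalized counts, and 583 of them (97.8%) had reads in all 4 controls. A count of 0 allows up to 3 reads over the 3 exposed fish, which is 0.896 normalized counts, for counting error only. Against this floor the silenced contigs were at least 10.4-fold to at least 2485-fold lower, with a median of at least 24.2-fold. Lowered contigs with a PBS mean of at least 1000, most of which kept reads, had a median of 25.8-fold. Whether silenced contigs lost more than other lowered ones was not tested, so the word stands for a count of 0 alone. The 7 lowered contigs with a PBS mean under 10 were all silenced, as were 533 of the 1476 at 10 to 100, 54 of the 906 at 100 to 1000 and 2 of the 166 at 1000 and above. The silenced contigs held 29171 normalized counts in PBS fish, or 1.53% of the sum of lowered contigs. The loss of reads from these livers therefore lay almost entirely in contigs that still had some reads. In edgeR 477 of the 596 passed the thresholds (80.0%), against 65.7% of all lowered contigs. The 596 were chosen for 0 reads in every exposed fish that edgeR compares, so this contrast is partly built into the choice.

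TRINITY_DN110242_c8_g1_i7 was the silenced contig with the highest PBS mean. PBS fish 1 to 4 had 2.15, 7167, 1643 and 95.8 normalized counts of it, and no MC-LR fish had a read. Its mean of 2227 ± 3378 (SD, n = 4) came mostly from PBS fish 2, and PBS fish 1 had 2 reads, so that a fold against the floor (at least 2485-fold lower) rests on few controls. Without PBS fish 2 it was at least 647-fold lower. It missed the threshold in edgeR (adjusted p = 0.00221), and it passed without PBS fish 1 (adjusted p = 0.000374). Over its 12 alternatives the adjusted p ran from 1.56e-06 in DESeq2, with which the authors listed it, to 0.00958 in edgeR.

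The silenced contig of rank 2 also differed among controls, with 3484, 285, 419 and 2701 normalized counts in PBS fish 1 to 4. By contrast, the contig of rank 5 had 651, 724, 485 and 601 in controls, a ratio of 1.49 between the highest and the lowest, and no read in exposed fish. It was at least 687-fold lower. Ranks 3 to 10 had PBS means of 768 down to 340. Ranks 3 and 6 belong to 1 Trinity component, and the ratio of their levels lay between 1.43 and 1.52 in the 4 controls. This pair was picked after its values were seen, and contigs of 1 component can share reads or be pieces of 1 transcript.

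Among raised contigs, 122 had an MC-LR mean of at least 1000 and held 74.6% of the reads of raised contigs in exposed fish. Another 579 lay at 100 to 1000 and 610 at 10 to 100. Most of the 122 were expressed in controls as well, with a PBS mean of at least 100 in 83 of them, at least 1000 in 9 and under 10 in 11. Their median PBS level was 9.78% of the MC-LR mean. The groups of fish did not overlap in 121 of the 122, and in 99.0% of all raised contigs. MC-LR fish 2 was the highest exposed fish in 71, fish 3 in 39 and fish 1 in 12. Contigs with a mean of at least 1000 in both groups numbered 33, lowered and raised together.

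TRINITY_DN78778_c0_g1_i16 was the raised contig with the most reads in exposed fish. PBS fish 1 to 4 had 3384, 3831, 4386 and 2922 normalized counts of it, and MC-LR fish 1 to 3 had 108244, 32151 and 289694. All exposed fish were above all controls, but they differed from each other far more than the controls did. The mean was 3631 ± 626 in PBS fish (SD, n = 4) and 143363 ± 132315 in MC-LR fish (SD, n = 3), 39.5-fold higher. Its log2 fold change in edgeR was 5.30 (SE 0.82, adjusted p = 0.000187). Over its 12 alternatives the adjusted p ran from 2.50e-14 in DESeq2, with which the authors listed it, to 0.00177 in edgeR. The largest missed the threshold. The contig held 15.6%, 3.89% and 29.5% of the reads of raised contigs in MC-LR fish 1 to 3. Without MC-LR fish 3 its mean was 19.3-fold higher than in PBS fish, with a log2 fold change in edgeR of 4.27 (adjusted p = 0.000276).

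The contig of rank 2 had the highest level in controls of the first 10. It had 13847, 15687, 13275 and 8622 normalized counts in PBS fish and 63919, 45801 and 35287 in MC-LR fish. Its log2 fold change of 1.91 lay below the threshold in edgeR (SE 0.52, adjusted p = 0.00369). The contig of rank 10 differed most among the 10, with 15.1, 26.9, 8.67 and 21.5 in controls and 5742, 11183 and 9572 in exposed fish, 490-fold higher. Ranks 4 and 5 were close to each other in fold, at 179-fold and 181-fold, and both were below rank 10. Exposed fish were close to each other in both, with 17793, 26263 and 19824 for rank 4. Rank 3 was uneven, with 6433 normalized counts in MC-LR fish 1 against 42787 and 42560 in fish 2 and 3.

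No control had a read on 160 raised contigs (12.2%), while 778 (59.3%) had reads in all 4 controls. The 160 had MC-LR means of 11.4 to 1544 normalized counts, with a median of 23.4, and all 3 exposed fish had reads on every one of them. Against a floor of 3 reads over the 4 controls, 0.773 normalized counts, they were at least 14.8-fold to at least 1997-fold higher, with a median of at least 30.2-fold. They held 0.892% of the reads of raised contigs in exposed fish. In edgeR 146 of the 160 passed the thresholds (91.2%), against 70.3% of all raised contigs.

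TRINITY_DN80414_c8_g1_i6 had the highest MC-LR mean of these 160. No PBS fish had a read, and MC-LR fish 1 to 3 had 1012, 1602 and 2019 normalized counts. The mean of 1544 ± 506 (SD, n = 3) was at least 1997-fold above the floor (edgeR, adjusted p = 1.18e-05). Over its 12 alternatives the adjusted p ran from 1.49e-28 in DESeq2, with which the authors listed it, to 0.000133 in edgeR. The next 9 such contigs had means of 349 down to 94.6, and MC-LR fish 2 was the highest exposed fish in 7 of the first 10. Rank 5 was uneven among exposed fish, with 22.0, 408 and 197, and rank 9 was even, with 112, 117 and 93.7.

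The spread between fish was compared on contigs with a mean of at least 100 in both groups, where counting error is small. The 175 such lowered contigs had a median coefficient of variation of 29.5% among PBS fish (quartiles 18.2% and 48.5%) and 37.5% among MC-LR fish (quartiles 19.3% and 58.1%). The 145 such raised contigs had medians of 27.5% (quartiles 18.3% and 42.8%) and 21.6% (quartiles 13.1% and 34.5%). Within each set the quartiles of the groups overlapped widely, and a contig with a small spread was more likely to be listed, so no order of the groups is read from these values.

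**Figure D5:**
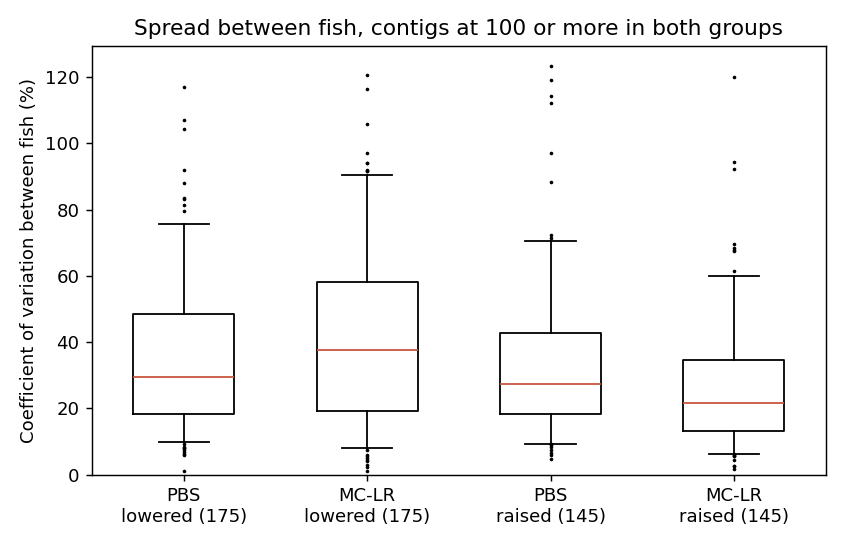
Coefficient of variation between fish in percent, for contigs with a mean normalized count of at least 100 in both groups, as boxes with quartiles, median and 5th to 95th percentile whiskers. The medians are 29.5% in PBS and 37.5% in MC-LR fish for the 175 lowered contigs and 27.5% and 21.6% for the 145 raised contigs.

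Of the 701 raised contigs with an MC-LR mean of at least 100, 115 (16.4%) had more than 50% of their exposed reads in 1 fish, which was MC-LR fish 2 in 71, fish 3 in 26 and fish 1 in 18. The most uneven had 334 normalized counts in MC-LR fish 1 and 29.0 and 45.5 in fish 2 and 3, with 5.38 to 15.9 in controls. The next was also highest in MC-LR fish 1, with 21951 against 4110 and 1633, and with 250 to 1127 in controls. The third had 12.7, 226 and 62.8 in MC-LR fish 1 to 3. The first and second missed the threshold in edgeR, with adjusted p of 0.00116 and 0.00131, and the third passed it at 0.000666.

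Fish within a group differed in their typical level. PBS fish 4 was the lowest control in 496 of the 1072 lowered contigs with a PBS mean of at least 100 (46.3%), and its median difference from the mean of the other controls was -0.36 on the log2 scale, against at most 0.05 in size for controls 1 to 3. On the 145 raised contigs at that PBS level it was 0.06, and PBS fish 3 was furthest from the others there, at -0.16. MC-LR fish 3 differed from the mean of the other exposed fish by a median of -0.32 on 175 lowered contigs with an MC-LR mean of at least 100 and by 0.05 on 701 raised ones. MC-LR fish 1 differed by 0.13 and -0.31. Without PBS fish 4 edgeR called 775 raised and 1536 lowered contigs. Without PBS fish 1, 2 or 3 it called fewer, with 699, 634 or 648 raised and 1369, 1166 or 1163 lowered ones. Across the 3866 contigs, log2 levels had a Pearson's r of 0.88 to 0.92 between controls and 0.93 to 0.94 between exposed fish. The pairs with PBS fish 4 gave the 3 lowest values among controls. These correlations are across contigs chosen to differ between the groups and are given as a description.

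The 3866 contigs came from 3575 Trinity genes, a unit of the assembly that groups contigs with shared sequence as isoforms. Several contigs were listed for 255 of these genes, 546 contigs in all and at most 4 per gene. In 191 genes all listed contigs were lowered, in 60 all were raised, and in 4 (1.57%) they went in both directions. The log2 ratios within a gene differed by a median of 0.81 where all were lowered and 0.53 where all were raised. Of the 191 genes, 20 had every listed contig silenced, 42 had some silenced and others not, and 129 had none silenced. Contigs of 1 gene can share reads, and whitefish carries duplicated genes from the ancestral genome duplication of salmonids, so reads may also have been split between copies.

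In the broader Trinity clusters, which join genes of 1 read graph, 560 clusters had several listed contigs and 71 (12.7%) held both lowered and raised ones.

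The 4 genes with contigs in both directions had 1 lowered and 1 raised contig each. In the most abundant, the lowered contig had 1822, 960, 1146 and 1991 normalized counts in PBS fish and 11.02, 48.7 and 25.5 in MC-LR fish. Its partner had 42.0, 45.8, 24.9 and 46.0 in PBS fish and 120, 259 and 173 in MC-LR fish. Both passed the thresholds in edgeR, with log2 fold changes of -5.70 (SE 0.64, adjusted p = 3.66e-05) and 2.21 (SE 0.45, adjusted p = 0.000756). Of the gene's listed contigs, the lowered one held most reads in controls and the raised one in exposed fish. Their summed mean was 1520 in PBS fish and 213 in MC-LR fish. Any contigs of the gene outside the list are not counted in it.

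The second gene had the same arrangement, with a lowered contig of 637 ± 277 in PBS fish (SD, n = 4) and 36.7 ± 28.7 in MC-LR fish (SD, n = 3), and a raised contig of 10.9 ± 5.70 and 111 ± 9.03. In the third gene the raised contig was the larger in both groups, with 328 ± 139 and 1028 ± 114 normalized counts, and its log2 fold change of 1.65 lay below the threshold (SE 0.41, adjusted p = 0.0023 in edgeR). Its partner had 19.1 ± 5.62 in PBS fish and a single read in 1 MC-LR fish. The fourth gene had 26.1 ± 15.2 and 0.889 ± 0.911 on its lowered contig and 20.2 ± 8.91 and 123 ± 27.9 on its raised one. The groups of fish did not overlap in any of these 8 contigs, as in 97.7% of all lowered and 99.0% of all raised contigs.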

How the data were processed

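Liver RNA of 7 fish was analysed, 4 injected with PBS (day 1) and 3 with MC-LR (day 6). The authors trimmed reads with Trimmomatic 0.36, assembled contigs de novo, removed redundant contigs (CD-HIT) and low ones (RSEM), and counted reads per contig with SAMtools. These counts were deposited unnormalized. The signal column, a mean normalized count over the 7 fish, was computed by the authors with DESeq2 1.28.0. The remaining deposited columns hold the authors' own fold changes and p-values and were not used. No count column lacked a sample.

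Size factors were solved from the base means, which they rebuild to within 6e-15 of the value. Counts of all 3866 contigs were fitted with edgeR 4.0.16 (glmQLFit, glmQLFTest) in R 4.3.3, with these size factors. Benjamini-Hochberg adjustment was over the table, which holds listed contigs only. Calls used the study's thresholds, 0.001 for the adjusted p and 2 for the size of the log2 fold change. Standard errors were taken as the log2 fold change over the square root of its F statistic. Dispersions were estimated from contigs chosen for a difference, which can make them too small. The fits were tested on simulated counts in which most contigs were unchanged. The listed contigs were all chosen for a change, so that test does not show how reliable the calls are here. Contigs were called lowered or raised by their group means. Alternatives were TMM, clean-read scaling, DESeq2 1.42.0, a filter of 10 reads in 3 fish, the replicate number as a block and each fish left out.

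Named contigs were the first of 4 orders: lowered by PBS mean, silenced by PBS mean, raised by MC-LR mean and without PBS reads by MC-LR mean. Other contigs are given by rank. The contigs and lists were chosen with earlier results of these data known. The replicates are separate fish. Total reads of each library were used for scaling only. The number of reads limits what 0 can show, and floors cover counting error only.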

Additional observations from a re-analysis of the deposited data

Results flagged for a closer look

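Of 45 sets of 4 PBS values that were checked for a fish far from the others, 1 stood out, and chance gives about 1 in 20. It was the raised contig of rank 5 by MC-LR mean, which had 152 normalized counts in PBS fish 3 and 68.9, 74.6 and 69.4 in PBS fish 1, 2 and 4. The gap took up 0.931 of the range, above Dixon's critical value for 4 samples. MC-LR fish had 12244, 19733 and 17579 normalized counts of this contig, so the high control does not bear on its direction.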

How the results depend on the processing

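With TMM of the listed contigs edgeR called 798 lowered contigs, the lowered sum was 14.2% of PBS, the raised sum 20.5 times PBS and 186 raised contigs had an MC-LR mean of at least 1000. Leaving out 1 fish gave 469 to 775 raised and 619 to 1536 lowered calls, with each of the 3 lowest counts from an MC-LR fish left out. Under the other alternatives the lowered sum was 6.16% to 7.62% of PBS and the raised sum 9.32 to 11.2 times PBS, while 450 to 752 contigs had no read in MC-LR fish and 111 to 216 none in PBS fish. The low count filter left 2531 calls. The replicate number does not pair fish: same-numbered fish are different animals whose deviations correlated at 0.02, 0.06 and -0.02 across contigs. With that number as a block, on fish 1 to 3, edgeR called 645 raised and 1220 lowered contigs. TRINITY_DN78778_c0_g1_i16 then missed the threshold (log2 fold change 4.73, adjusted p = 0.00177 in edgeR). No alternative turned the direction of a named contig, and of all listed contigs 1 turned, under TMM. Depth limits contigs with few reads: 294 raised contigs had a PBS mean under 1, and 896 lowered contigs had an MC-LR mean under 1.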
